A study of Mus musculus with 12 samples.

Results

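The Schlafen genes Slfn1, Slfn2, Slfn3, Slfn4, Slfn5, Slfn8 and Slfn9 were followed in mouse macrophages at rest and after stimulation, with and without an inhibitor of triacylglycerol synthesis. The 7 genes were chosen by symbol, are 7 of the 47937 genes counted, and all had enough reads to be among the 11760 genes tested. Slfn1, with at most 3 reads in any resting library, passed that read filter only through the stimulated groups. Bone marrow cells of C57BL/6 mice were grown for 7 days with CSF-1 at 20 ng/ml, which yields macrophages. In all, 4 groups, each of 3 libraries, were sequenced to ask how the transcripts of inflammatory macrophages depend on DGAT1, the enzyme that adds the last fatty acyl chain to diacylglycerol. They were resting macrophages (M0), macrophages given IFNγ at 50 ng/ml and LPS at 20 ng/ml during 18 h (IFNγ + LPS), and both of these with T863, a DGAT1 inhibitor, at 50 µM for 18 h (DGAT1i). The labels give no time for M0, name no vehicle, and describe 2 of the 3 libraries of M0 with DGAT1i by other compound numbers (T864 and T865), which were read here as T863. They do not say whether the replicates come from separate mice, so that p-values measure the spread between these libraries. In RNA from whole cultures, fewer cells that express a gene and less RNA per cell cannot be told apart.

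Schlafen genes encode a family of proteins that many cells of the immune system switch on in response to interferons and to microbial products. In the mouse they are sorted by length. Slfn1 and Slfn2 are short and Slfn3 and Slfn4 of intermediate length, whereas Slfn5, Slfn8 and Slfn9 are long and carry a helicase-like part at their end. Slfn2 is needed to keep T cells and monocytes quiescent, Slfn1 slows the growth of thymocytes when it is forced on, and Slfn4 falls as myeloid precursors become macrophages and returns when macrophages are activated.

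All 7 genes lie in 1 cluster on chromosome 11 (GENCODE release M21, GRCm38), from position 82942341 to 83286726, a stretch of 344386 bases that holds 10 genes with a Schlafen name. Slfn5 (chr11:82951349-82964840), Slfn2 (chr11:83065112-83070678), Slfn1 (chr11:83116849-83122670), Slfn4 (chr11:83175186-83190216) and Slfn3 (chr11:83191330-83215154) are read from the plus strand. Slfn9 (chr11:82978390-82991830) and Slfn8 (chr11:83002158-83020810) are read from the minus strand, beside the pseudogene Slfn10-ps.

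Promoter sequences are shown for the pair with the most similar promoters (Slfn8 and Slfn9), for Slfn5, and for the genes with the largest response to IFNγ + LPS (Slfn1 and Slfn4). They were taken from RefSeq (GRCm38.p6), in which all 7 genes were matched, and run 5′ to 3′ on the strand of the gene. Slfn8 covers chr11:83020811-83021060, Slfn9 chr11:82991831-82992080, Slfn1 chr11:83116570-83116819 and Slfn4 chr11:83174936-83175185, each being the 250 bases before the annotated start. Of Slfn5, 133 bases at chr11:82951852-82951984 are shown, up to the first exon of another of its transcripts. The RefSeq start of Slfn5 used here, 82952102, lies inside the GENCODE span of the gene, which begins at 82951349. For Slfn1 the RefSeq start, 83116820, lies before the GENCODE start at 83116849. Capitals mark each match to GAAA, any 2 bases and GAAA again, the core of the interferon-stimulated response element, to which interferon-activated transcription factors bind, on either strand.
Slfn8: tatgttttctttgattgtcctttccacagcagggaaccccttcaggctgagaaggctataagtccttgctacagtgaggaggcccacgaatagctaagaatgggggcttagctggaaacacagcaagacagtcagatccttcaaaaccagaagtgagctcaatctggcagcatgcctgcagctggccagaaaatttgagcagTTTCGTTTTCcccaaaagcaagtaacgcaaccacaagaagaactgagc
Slfn9: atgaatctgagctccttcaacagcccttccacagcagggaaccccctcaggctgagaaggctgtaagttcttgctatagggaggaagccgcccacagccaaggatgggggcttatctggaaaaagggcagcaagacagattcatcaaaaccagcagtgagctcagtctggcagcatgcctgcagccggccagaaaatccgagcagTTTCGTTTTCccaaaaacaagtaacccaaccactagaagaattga
Slfn5: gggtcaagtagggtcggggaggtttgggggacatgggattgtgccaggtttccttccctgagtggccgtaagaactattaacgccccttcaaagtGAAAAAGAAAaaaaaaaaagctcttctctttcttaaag
Slfn1: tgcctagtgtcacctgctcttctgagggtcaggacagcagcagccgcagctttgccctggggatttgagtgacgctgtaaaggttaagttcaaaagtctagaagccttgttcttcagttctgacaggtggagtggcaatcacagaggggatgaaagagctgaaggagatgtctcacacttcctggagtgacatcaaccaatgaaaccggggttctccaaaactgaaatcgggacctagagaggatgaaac
Slfn4: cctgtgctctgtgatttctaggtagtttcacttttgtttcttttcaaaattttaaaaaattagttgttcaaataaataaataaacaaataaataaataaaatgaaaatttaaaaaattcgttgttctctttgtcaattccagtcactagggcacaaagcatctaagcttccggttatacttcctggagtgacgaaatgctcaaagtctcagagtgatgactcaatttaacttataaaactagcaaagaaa

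This core was present in the 250 bases before the start of 3 of the 7 genes. The same held for 3.46% of the 27025 genes with a RefSeq promoter (2.98% of 32851 promoters). Some genes have several starts, as Slfn8 has. Slfn8 and Slfn9 carried the same letters, TTTCGTTTTC, which are the core on the opposite strand, from -48 to -39 in Slfn8 and from -45 to -36 in Slfn9. In Slfn5 the match was GAAAAAGAAA, from -155 to -146. The core TTCNNNGAA of the gamma-activated sequence, which reads the same on both strands, was found before none of the 7 genes. It was found before 8.13% of the 27025 genes with a RefSeq promoter (7.02% of promoters), and the 2 motifs share no match here. Over the 250 bases, Slfn8 and Slfn9 were identical at 206 positions (79.8% of the alignment), whereas the other pairs of promoters shared between 39.1% and 48.4%. These are matches of letters and do not show binding.

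IFNγ + LPS raised all 7 Schlafen genes, by very different amounts. Slfn1 and Slfn4, with at most 16 reads in any M0 library, reached means of 274 and 372 CPM (reads of a gene relative to the TMM-scaled total of its library). Slfn8, Slfn5 and Slfn2 rose 16.4-fold, 12.3-fold and 9.52-fold, Slfn3 rose 2.11-fold, and Slfn9 rose 1.25-fold. Of all genes tested, 37.1% rose by the same rule (adjusted p under 0.05 in the quasi-likelihood test of edgeR, with p-values adjusted over all genes by Benjamini-Hochberg, called edgeR's test from here on). In all 7 the stimulated libraries lay above every M0 library, which was so for 38.2% of all genes. These counts include Slfn1, whose rise was set by how it passed the read filter. The median log2 fold change of the 7 genes was 3.62, against 0.01 over all genes.

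Among the short members, Slfn1 had 3, 3 and 1 reads in the M0 libraries, or 0.436, 0.400 and 0.139 CPM. After IFNγ + LPS it stood at 262, 296 and 262 CPM. The groups lay far apart, with 7 reads over the M0 libraries and 4291 over the stimulated ones (adjusted p = 1.28e-49, edgeR's test). The ratio was 845, with an exact 95% counting interval from 410 to 2104. Counting intervals here and below leave out the spread between libraries. Slfn1 passed the read filter only through its stimulated libraries, so its rise and its adjusted p are not independent of that filter. Slfn2 was well expressed at rest, at 137, 146 and 133 CPM, and reached 1296, 1341 and 1326 CPM after stimulation. No stimulated library came near the resting range, and the difference amounted to 3.25 on the log2 scale (SE, the standard error of the fitted log2 fold change, 0.06, adjusted p = 2.75e-48, edgeR's test).

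The pair of intermediate length parted. Slfn3, which has been studied in the maturation of intestinal epithelium, had 10.5, 13.5 and 11.4 CPM in M0 and 23.4, 27.5 and 23.8 CPM after IFNγ + LPS. Its groups did not overlap (log2 fold change 1.08, SE 0.12, adjusted p = 3.29e-11, edgeR's test). Slfn4, its neighbour on the same strand, had 2.32, 1.60 and 2.09 CPM in M0, from 16, 12 and 15 reads. It stood at 361, 417 and 338 CPM after stimulation. On the log2 scale the fitted rise was 7.53 (SE 0.20, adjusted p = 2.85e-12, edgeR's test), and the reads gave a ratio of 187 with an exact 95% counting interval from 139 to 259. Of the 50-base stretches in the transcripts of Slfn3, 16.0% also occur in other genes (7.39% in Slfn4), so reads there could be assigned to either gene.

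Of the long members, Slfn5, a nuclear protein, had 89.4, 79.6 and 87.4 CPM in M0 and 1034, 1101 and 1020.4 CPM after IFNγ + LPS (log2 fold change 3.62, SE 0.06, adjusted p = 2.26e-49, edgeR's test). Slfn8, which has been linked to T cell growth, had 42.0, 41.9 and 41.1 CPM and then 627, 731 and 688 CPM (log2 fold change 4.03, SE 0.07, adjusted p = 9.12e-49, edgeR's test). Both responses were many times the spread between libraries. Slfn9 had 69.7, 76.0 and 71.7 CPM in M0 and 81.3, 99.4 and 90.9 CPM after stimulation. The Slfn9 groups did not overlap, but their gap was small, and the fitted log2 value of 0.32 (SE 0.07, adjusted p = 1.31e-04, edgeR's test) turned to -0.15 (adjusted p = 0.0674, edgeR's test) when libraries were scaled by their totals only. That scaling moved the median of all genes to -0.46, and Slfn9 lay above this median in both cases.

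**Figure D1:**
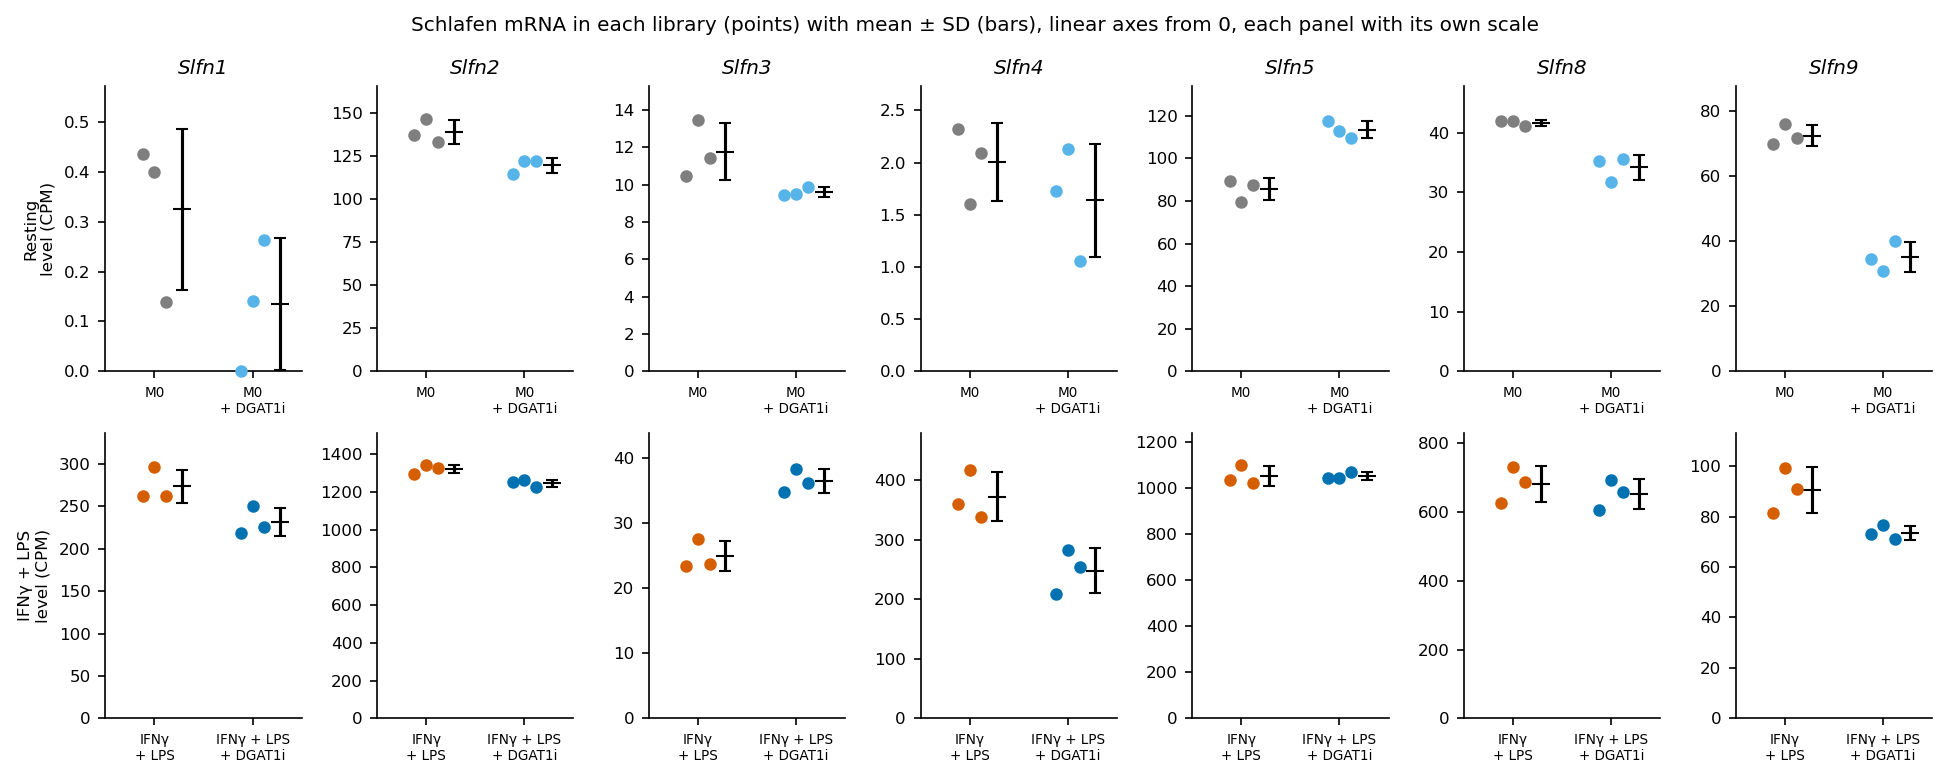
Level of each Schlafen gene in every library, in CPM on linear axes that start at 0 with a scale of their own in each panel. Points are libraries, bars beside them give the mean ± SD of 3 libraries, the upper row holds M0 without and with DGAT1i and the lower row IFNγ + LPS without and with DGAT1i. In M0, DGAT1i lowered Slfn9 from 72.5 to 35.2 CPM and raised Slfn5 from 85.5 to 113 CPM, and in IFNγ + LPS it raised Slfn3 from 24.9 to 36.5 CPM and lowered Slfn4 from 372 to 248 CPM.

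In resting macrophages, DGAT1i changed 4 of the 7 Schlafen genes. Slfn9 fell to about 0.486 of its level, Slfn8 and Slfn2 fell by smaller amounts, and Slfn5 rose. By the same rule 24.4% of all genes changed, 13.4% lower and 11% higher. In the members the groups did not overlap in 1 that was higher and in 4 that were lower, against 17.9% and 19.9% of all genes. The median log2 fold change of the 7 genes was -0.29, against 0.00 over all genes.

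Slfn9 showed the clearest change, with 34.5, 30.8 and 40.1 CPM with DGAT1i. Every treated library lay far under the lowest M0 library at 69.7 CPM, and the fitted log2 value was -1.04 (SE 0.08, adjusted p = 1.19e-15, edgeR's test). Slfn5 had 118, 113 and 109.5 CPM with DGAT1i, all above the highest M0 library at 89.4 CPM (log2 fold change 0.41, SE 0.06, adjusted p = 2.07e-07, edgeR's test). Slfn9 and Slfn5 thus moved in opposite directions in the same libraries. Slfn8 stood at 35.2, 31.8 and 35.6 CPM with DGAT1i, under all M0 libraries (log2 fold change -0.28, SE 0.08, adjusted p = 0.00603, edgeR's test). This call rested on 1 library, since without replicate 2 of M0 with DGAT1i the value was -0.23 with an adjusted p of 0.0585 (edgeR's test). Slfn2 stood at 115, 122 and 122 CPM, also under all M0 libraries (log2 fold change -0.21, SE 0.06, adjusted p = 0.00267, edgeR's test).

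The other members did not pass the test in M0. Slfn3 had 9.43, 9.51 and 9.90 CPM with DGAT1i, each under the lowest M0 library, yet the fitted log2 value of -0.30 (SE 0.14) had an adjusted p of 0.124 (edgeR's test). Slfn4 had 1.73, 2.13 and 1.06 CPM, within reach of the M0 range (log2 fold change -0.29, SE 0.56, adjusted p = 0.770, edgeR's test). Slfn1 had 0, 1 and 2 reads with DGAT1i against 7 reads over the M0 libraries, and the ratio of 2.40 had an exact 95% counting interval from 0.547 to 14.4. At this depth an effect of DGAT1i on resting Slfn1 was not detectable. These intervals cover counting error only.

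In macrophages stimulated with IFNγ + LPS, DGAT1i again changed 4 members, of which Slfn9 had also changed in M0. Slfn4, Slfn9 and Slfn1 were lower with the inhibitor and Slfn3 was higher, whereas Slfn2, Slfn8 and Slfn5 did not pass the test. Of all genes, 29.8% changed, 16.3% lower and 13.5% higher. The median log2 fold change of the 7 genes was -0.08, against -0.01 over all genes. The comparisons with IFNγ + LPS below share its 3 libraries with the comparison against M0 above.

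Slfn4 had 208, 282 and 254 CPM with DGAT1i. Its replicates were widely spread, but all lay under the lowest library without the inhibitor at 338 CPM (log2 fold change -0.59, SE 0.11, adjusted p = 0.0013, edgeR's test). Slfn3 had 34.8, 38.4 and 36.2 CPM with DGAT1i, all above the highest library without it at 27.5 CPM (log2 fold change 0.55, SE 0.11, adjusted p = 8.73e-05, edgeR's test). The 2 neighbours of intermediate length therefore moved in opposite directions, and the reads of Slfn4 per read of Slfn3 went from 14.9 ± 0.653 to 6.78 ± 0.715 (SD, n = 3). Slfn9 had 73.1, 76.6 and 71.0 CPM with DGAT1i, all under the lowest library without it at 81.3 CPM, and close to the M0 libraries, of which the highest had 76.0 CPM (log2 fold change -0.30, SE 0.08, adjusted p = 0.00232, edgeR's test). Slfn1 had 219, 250.3 and 226 CPM, all under the 262 CPM of the lowest library without the inhibitor (log2 fold change -0.24, SE 0.06, adjusted p = 0.00147, edgeR's test).

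The 3 most abundant members did not pass the test for DGAT1i after stimulation. Slfn2 had 1253, 1261 and 1225 CPM, each slightly under the libraries without DGAT1i, and the fitted log2 value was -0.08 (SE 0.05, adjusted p = 0.204, edgeR's test). Slfn8 had 607, 693 and 659 CPM, which overlapped the libraries without it (log2 fold change -0.06, SE 0.05, adjusted p = 0.411, edgeR's test). Slfn5 had 1041, 1042 and 1070.3 CPM, inside the range without the inhibitor (log2 fold change -0.00, SE 0.05, adjusted p = 0.994, edgeR's test). Without overlap between the groups were 1 higher and 4 lower members, against 18.1% and 21.6% of all genes.

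**Figure D2:**
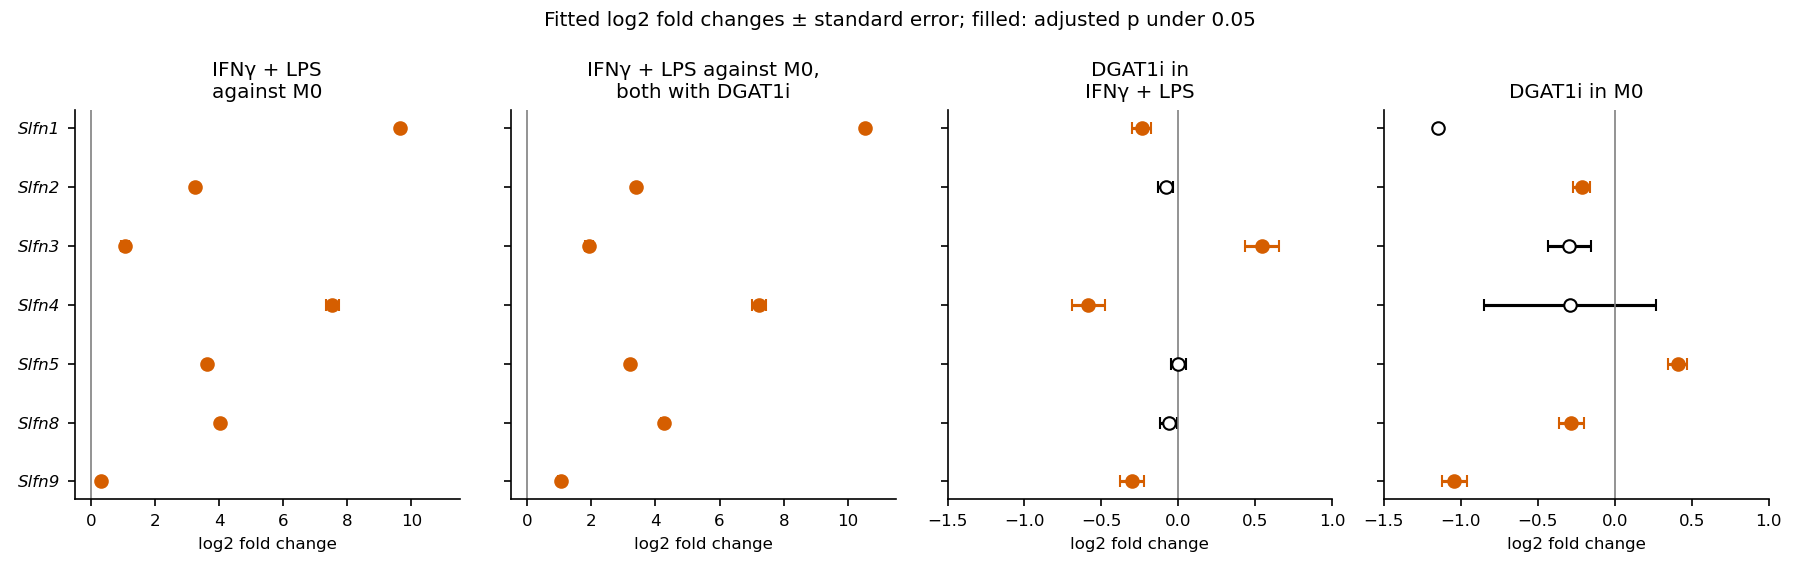
Fitted log2 fold changes of the 7 Schlafen genes for IFNγ + LPS without and with DGAT1i and for DGAT1i in stimulated and resting macrophages. Points give the fold change and bars its standard error, which is left out for Slfn1 where resting groups have only a few reads, and filled orange points have an adjusted p under 0.05. All 7 points of the activation panels lie above 0, and in the DGAT1i panels Slfn3 (0.55) and Slfn5 (0.41) are the members that rose.

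Whether a gene responded differently to DGAT1i in the 2 states was tested directly, as the response in IFNγ + LPS less that in M0. Slfn3, Slfn9 and Slfn5, 3 of the 7, passed this test, against 18.5% of all genes (8.66% with a higher and 9.8% with a lower response). Slfn3 went from -0.30 in M0 to 0.55 after stimulation, a difference of 0.84 (SE 0.18, adjusted p = 3.46e-04, edgeR's test). Slfn9 fell by 1.04 in M0 and by 0.30 after stimulation, a difference of 0.74 (SE 0.11, adjusted p = 1.68e-06, edgeR's test). Slfn5 rose by 0.41 in M0 and stood at -0.00 after stimulation, a difference of -0.41 (SE 0.08, adjusted p = 7.39e-05, edgeR's test). For Slfn4 the difference was -0.29 (SE 0.58, adjusted p = 0.785, edgeR's test), with few reads in M0. For Slfn1, with 7 and 3 reads in the resting groups, the fitted difference was 0.91 (SE 0.81, adjusted p = 0.509, edgeR's test). This value depends on the prior count and ran from 0.37 to 1.71 with single libraries left out. For Slfn2 it was 0.13 (SE 0.07, adjusted p = 0.234, edgeR's test). For Slfn8 it was 0.22 (SE 0.10, adjusted p = 0.110, edgeR's test). It passed with library totals as the scaling, at 0.27 (adjusted p = 0.0433, edgeR's test), and, when replicate 1 of the stimulated libraries with DGAT1i was left out, at 0.27 (adjusted p = 0.0423, edgeR's test).

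Seen the other way, IFNγ + LPS raised all 7 genes in the presence of DGAT1i too, where 35.3% of all genes were higher. The log2 fold changes were 3.38 for Slfn2, 4.25 for Slfn8 and 7.24 for Slfn4. Slfn9 rose by 1.06 (SE 0.09, adjusted p = 2.46e-16, edgeR's test), from the lower resting level that it had with the inhibitor. Slfn3 rose by 1.92 (SE 0.12, adjusted p = 1.13e-20, edgeR's test), and Slfn5 by 3.21 (SE 0.06, adjusted p = 2.46e-47, edgeR's test). Slfn1 had 3 reads over the resting libraries with DGAT1i and 3233 over the stimulated ones, a ratio of 1713 with an exact 95% counting interval from 586 to 8311.

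Levels of different genes were compared per kilobase of exon. In M0, Slfn2 led with 83.3 ± 4.07 CPM per kb (SD, n = 3), followed by Slfn5 with 13.5 ± 0.813, Slfn9 with 12.2 ± 0.541 and Slfn8 with 10.2 ± 0.126 CPM per kb. Slfn3 stood at 3.45 ± 0.448, Slfn4 at 0.505 ± 0.0935 and Slfn1 at 0.174 ± 0.0868 CPM per kb. Neighbours in this order did not overlap between libraries, with the exception of Slfn5 and Slfn9. After IFNγ + LPS the order was Slfn2 (794 ± 14.0 CPM per kb), Slfn8 (167 ± 12.8), Slfn5 (166 ± 6.80), Slfn1 (147 ± 10.7), Slfn4 (93.8 ± 10.4), Slfn9 (15.2 ± 1.52) and Slfn3 (7.30 ± 0.673), and of these neighbours only Slfn8 and Slfn5 overlapped. Slfn1 thus climbed from the last place to the fourth, and Slfn9 went from the third to the sixth.

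DGAT1i altered this order at rest, where Slfn9 at 5.89 ± 0.786 CPM per kb came under Slfn8 at 8.36 ± 0.513 CPM per kb. Slfn9 had 1.74 ± 0.0761 reads per read of Slfn8 in M0 and 1.03 ± 0.0874 with DGAT1i (SD, n = 3). After IFNγ + LPS the same ratio was 0.133 ± 0.00314, and 0.113 ± 0.00665 with DGAT1i. These genes stand beside each other with similar promoters, and 14.6% of the 50-base stretches of Slfn8 and 11.9% of those of Slfn9 occur in other genes, most of them in Slfn10-ps. Slfn10-ps itself had 41.6 ± 5.14 CPM in M0, 38.7 ± 1.15 with DGAT1i, 80.1 ± 5.73 after IFNγ + LPS and 72.8 ± 2.71 with both (SD, n = 3). It rose with IFNγ + LPS (log2 fold change 0.95, SE 0.08, adjusted p = 7.05e-16, edgeR's test), and DGAT1i gave it -0.10 in M0 (adjusted p = 0.433, edgeR's test) against the -1.04 of Slfn9.

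Summed per kilobase, the 7 genes stood at 123 ± 4.23 CPM per kb in M0, 107 ± 2.24 with DGAT1i, 1390 ± 52.1 after IFNγ + LPS and 1285 ± 32.8 with both (SD, n = 3). Slfn2 made up 67.6% of the sum in M0 and 57.1% after IFNγ + LPS. Slfn1 and Slfn4 made up 10.6% and 6.74% of it after stimulation, from 0.140% and 0.412% in M0. Slfn9 went from 9.86% to 1.09%. In M0, DGAT1i moved the share of Slfn5 from between 9.84% and 11.6% to between 15.8% and 17.7%, and that of Slfn9 to a mean of 5.49%.

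**Figure D3:**
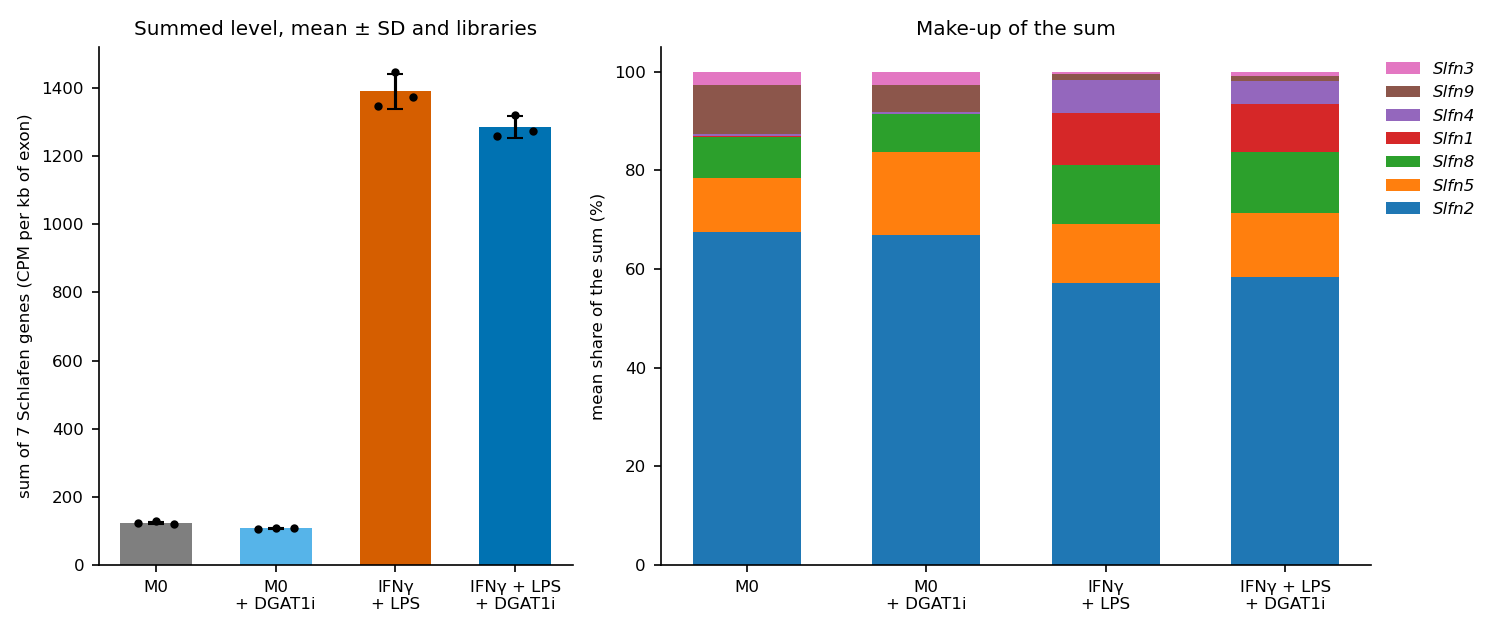
Summed level of the 7 Schlafen genes in CPM per kilobase of exon, with bars for the mean, error bars for the SD and points for the 3 libraries of each group, and the mean share of each gene in that sum in percent. The sum stands near 123 in M0 and 1390 after IFNγ + LPS, and Slfn1 and Slfn4 fill a visible share of the bar only in the stimulated groups.

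The response was mapped along the cluster. Of the 7 members, those with the smallest rise, Slfn9 and Slfn3, each stood beside one with a large rise, Slfn8 and Slfn4. Slfn14, at the far end, had 0 reads in all 12 libraries, and Slfnl1, a related gene outside the cluster, had at most 1 read in a library. Slfn5 shares 559 exonic bases with an antisense gene, Slfn5os. The sources differ on whether the library kit kept the strand, so reads there could belong to either gene. Of the 4 nearest protein-coding genes wholly outside the cluster on each side, 5 of 8 were tested. Rffl, a ubiquitin ligase gene, rose from 4.88 ± 0.994 to 32.9 ± 2.34 CPM (SD, n = 3; log2 fold change 2.75, SE 0.15, adjusted p = 2.36e-24, edgeR's test). Nle1 was lower by the same test (log2 fold change -0.69, SE 0.22, adjusted p = 0.00394, edgeR's test). Ap2b1 at 0.30 and Rad51d at 0.41 were higher, but both turned with library totals as the scaling, to -0.17 and -0.060. The Rad51d call was also lost with DESeq2 and without replicate 2 of IFNγ + LPS, where it was 0.33.

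**Figure D4:**
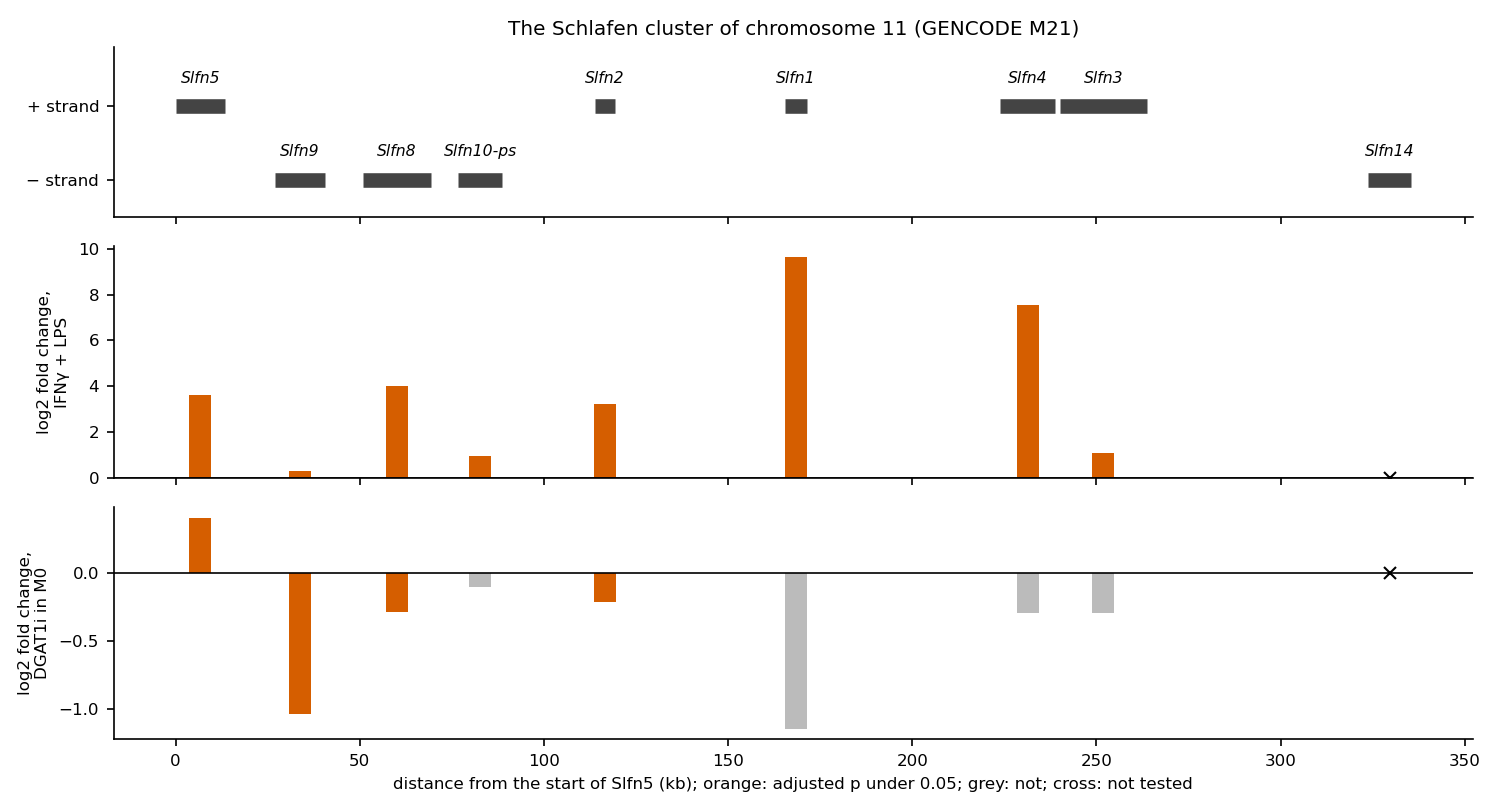
Map of the Schlafen cluster with each gene drawn to scale on its strand, against distance from the start of Slfn5 in kilobases, over the log2 fold changes for IFNγ + LPS and for DGAT1i in M0. Orange bars have an adjusted p under 0.05, grey bars do not, and a cross marks Slfn14, which was not tested. Slfn9 (0.32 and -1.04) and its neighbour Slfn8 (4.03 and -0.28) differ in both panels, and the grey Slfn1 bar for DGAT1i rests on 10 reads.

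For each member the 3 genes with the most similar pattern were found by Pearson's r on log2 CPM over the 12 libraries, among 10172 genes that averaged 2 or more in log2 CPM. Since the libraries fall into 4 groups, r mainly follows the differences between groups and is given as a description. Slfn2 was most like Irf1 (r = 1.000), an interferon-induced transcription factor, and then Trim30a and Irf7. Slfn8 was most like Trim30a, Tapbp, which serves antigen loading, and Slfn2. Slfn1 was most like Calhm6, Ifi44 and Slfn2. Ifi35 and Cd40 were among the 3 genes most like Slfn4. Slfn5 was most like Hk3, a hexokinase, Cd274, which encodes PD-L1, and Ifi204.

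The remaining 2 members had other companions. Slfn3 was most like Hspa8 (r = 0.994) and Hsp90aa1 (r = 0.992), which encode cytosolic chaperones, and Carmil1 (r = 0.990). Hspa8 had mean levels of 1242 CPM in M0, 1084 with DGAT1i, 2852 after IFNγ + LPS and 4178 with both, the same order of groups as in Slfn3. Slfn9 was most like Ccdc50 (r = 0.978), Nono (r = 0.953) and Rchy1 (r = 0.953). Ccdc50 stood at 188, 143, 213 and 191 CPM in the same groups, lowest in M0 with DGAT1i as Slfn9 was. Between Slfn9 and the other members r lay between 0.593 and 0.696.

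The interferon pathway around these genes was read from 2 lists. Of 19 genes for interferons, their receptors and signal transduction, 16 were tested. The interferon genes Ifnb1, Ifna4 and Ifng were not among them. IFNγ + LPS raised 14 and lowered 1, against 37.1% and 36.2% of all genes. Of the 14, Socs1 had at most 8 reads in any resting library and passed the read filter only through the stimulated groups. The lowered gene was Ifngr1, which encodes a chain of the IFNγ receptor. In stimulated macrophages DGAT1i lowered 7, among them Ifngr2, Jak2, Tyk2, Irf7, Irf9 and Usp18, and raised 1 (Ifnar2), against 16.3% and 13.5% of all genes, with a median log2 fold change of -0.10 against -0.01 over all genes. Irf9, a transcription factor of the type I response, went from 107 ± 3.67 to 73.8 ± 7.98 CPM (SD, n = 3; log2 fold change -0.53, SE 0.07, adjusted p = 2.8e-08, edgeR's test). Usp18, which restrains the type I receptor, had a log2 fold change of -0.70, and the receptor kinases Tyk2 and Jak2 had -0.42 and -0.26. Ifnar2, a chain of that receptor, had 0.28. Its rise with IFNγ + LPS, 0.46, turned to -0.014 with library totals as the scaling. In M0, DGAT1i lowered 4 of the 16 (Ifngr1, Irf1, Irf8 and Usp18) and raised 0, against 13.4% and 11% of all genes. Usp18 stood at -0.75 there (SE 0.17, adjusted p = 9.27e-04, edgeR's test), and the difference between its responses was 0.06 (adjusted p = 0.868, edgeR's test).

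Of 30 type I interferon-stimulated antiviral genes, 29 were tested and all 29 rose with IFNγ + LPS, against 37.1% of all genes. Some of these, such as Cxcl10 with at most 5 reads in any resting library, passed the read filter only through the stimulated groups. In stimulated macrophages DGAT1i lowered 18 and raised 2 (Ifit2 and Oasl1), against 16.3% and 13.5% of all genes, with a median log2 fold change of -0.31. The 4 genes of this list with the smallest p had log2 fold changes of -1.23 (Ifit3b), -0.86 (the chemokine gene Cxcl10), -0.78 (Mx2) and -0.49 (Mx1). Cxcl10 went from 2342 ± 52.9 to 1286 ± 18.9 CPM (SD, n = 3; adjusted p = 3.72e-20, edgeR's test), and Mx1 from 2591 ± 30.4 to 1839 ± 109 CPM (SD, n = 3; adjusted p = 2.34e-11, edgeR's test). Beside these values stand -0.59 for Slfn4, -0.30 for Slfn9 and -0.24 for Slfn1, 0.55 for Slfn3, and between -0.08 and -0.00 for the 3 most abundant Schlafen genes. In M0, DGAT1i lowered 6 and raised 2 of the 29, against 13.4% and 11% of all genes, with a median of -0.08.

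**Figure D5:**
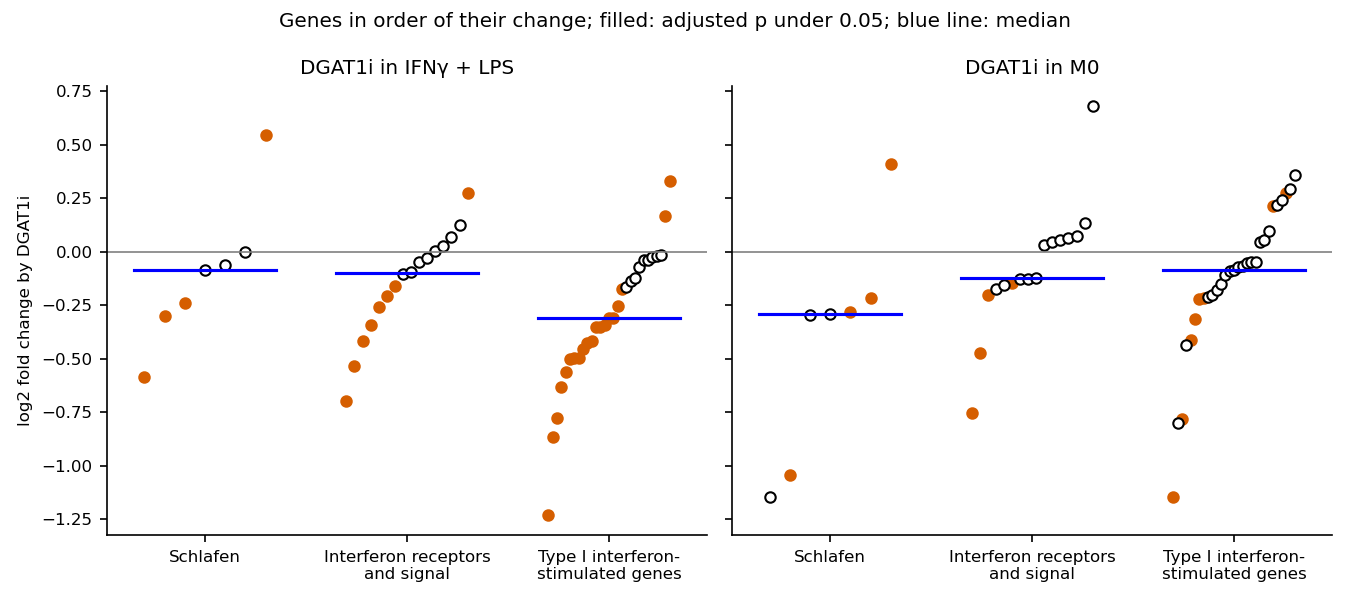
Log2 fold change by DGAT1i of the 7 Schlafen genes, 16 interferon receptor and signal genes and 29 type I interferon-stimulated genes, in stimulated and in resting macrophages. Each point is a gene, placed in order of its change, filled orange points have an adjusted p under 0.05 and blue lines are medians. In stimulated macrophages the medians are -0.08, -0.10 and -0.31, and the Schlafen genes run from -0.59 to 0.55.

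The libraries held between 4996014 and 6621671 reads, and 1 CPM was worth 4.28 to 7.58 reads. Replicates correlated with r from 0.988 to 0.992. The activation genes Nos2, Il12b, Cd38, Acod1 and Gbp2 were all higher after IFNγ + LPS, with Nos2 at 0 reads in M0 and at 4785 CPM after stimulation. Apart from Gbp2, these genes passed the read filter only through the stimulated groups. All 8 macrophage markers had reads in the libraries. Their sum ran from 13131 to 14358 CPM in M0, 16054 to 18075 with DGAT1i, 8323 to 8980 after IFNγ + LPS and 7923 to 8891 with both. Between M0 and IFNγ + LPS, the means of Lyz2 (9641 and 2956 CPM), Csf1r (1261 and 847 CPM), Cd68 (1043 and 631 CPM), Itgam and Cd14 were lower after stimulation, whereas Adgre1 (1316 and 2706 CPM), Fcgr1 (91.1 and 857 CPM) and Mertk (71.4 and 459 CPM) were higher after stimulation. With DGAT1i in M0, the means of Lyz2 (13045 CPM), Cd68 (1333 CPM), Itgam, Fcgr1 and Mertk were higher than in M0 without it. Those of Adgre1 (1164 CPM), Csf1r (1181 CPM) and Cd14 were lower. Of 11 genes of neutrophils and their precursors 9 had reads, with Ly6g and Retnlg at 0. Their sum moved with DGAT1i, from between 16.8 and 27.3 CPM to between 64.5 and 82.4 CPM after IFNγ + LPS, while in M0 it went from between 37.6 and 45.9 to between 29.2 and 37.2 CPM. After IFNγ + LPS most of the gain came from S100a8 (means of 9.13 CPM without and 34.5 CPM with DGAT1i) and S100a9 (7.78 and 25.8 CPM). The granule genes Ngp (1.35 and 9.18 CPM) and Ltf (0.932 and 4.33 CPM) were also higher with DGAT1i, while Mmp8 went from 2.27 to 1.57 CPM and Elane was at 0 in both groups. Of 4 megakaryocyte and erythroid markers, Hbb-bs was at 0, and the sum of 63.2 to 199 CPM came almost wholly from Pf4. The sums of T and NK cell, B cell, dendritic cell, mast cell and stromal markers stayed at or under 7.37 CPM in every library. Among them the dendritic cell sum moved with DGAT1i after IFNγ + LPS, from between 5.62 and 7.37 CPM to between 1.04 and 1.44 CPM, mainly through Xcr1 (means of 5.53 and 0.871 CPM). In M0 the B cell sum went from between 2.03 and 2.66 CPM to between 0.531 and 1.85 CPM with DGAT1i, mainly through Cd79b. Without DGAT1i, the dendritic cell, T and NK cell and stromal sums were higher after IFNγ + LPS than in M0, and the B cell sum was lower. The T and NK cell sum went from between 0.557 and 0.932 CPM to between 2.53 and 5.04 CPM. The part of these marker shifts in the Schlafen results was not tested.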

How the data were processed

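RNA sequencing counts of 12 macrophage libraries in 4 groups of 3 were analysed, with groups taken from the sample labels. The authors deposited raw read counts per gene by Ensembl identifier for 47937 genes, made with the pipeline of their institute from HiSeq 3000 reads. The submitters' processing notes name GRCm38, whereas the aligner, counting tool and annotation release were not given in the sources used here. Symbols and positions came from GENCODE M21, which matched 47310 identifiers.

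The counts were fitted with edgeR 4.0.16 (R 4.3.3): filterByExpr (11760 genes kept), TMM scaling, 1 mean per group over the 12 libraries, glmQLFit (robust) and glmQLFTest, with Benjamini-Hochberg adjustment over all genes tested and a threshold of 0.05. Standard errors were derived from the fold change and its F statistic. Levels are CPM after TMM scaling, and levels between genes were compared per kilobase of the union of exons. Totals per library ran from 4996014 to 6621671 reads. Ratios of summed reads have exact 95% binomial intervals, which cover counting error and not the spread between libraries. Shared sequence was counted as 50-base stretches of transcripts. The edgeR fit was tested on simulated counts for the comparisons between groups, but not for the difference between the DGAT1i responses.

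Alternatives were RLE size factors, library size only, no filter, a mean CPM of at least 1, DESeq2 1.42.0, fits of only the 6 libraries compared, a block for the replicate number, and leaving out the 12 libraries one by one. Named genes were the 7 members, other Schlafen genes, 3 most similar genes for each member, the 6 interferon signal genes and 4 interferon-stimulated genes with the smallest p for DGAT1i in IFNγ + LPS, 4 neighbours on each side, and activation and cell type markers, of which a few are not reported here. The members and lists were chosen with earlier results of these data known. Plots used matplotlib 3.10.9 (Python 3.11.15).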

Additional observations from a re-analysis of the deposited data

Results flagged for a closer look

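The response to DGAT1i differed between the stimulated and the resting state in 3 members, by a test of the difference itself. The differences, as the log2 fold change in IFNγ + LPS less that in M0, were 0.84 for Slfn3, 0.74 for Slfn9 and -0.41 for Slfn5. With each library left out in turn they ran from 0.73 to 0.92 for Slfn3, from 0.65 to 0.84 for Slfn9 and from -0.44 to -0.36 for Slfn5. No outlier test was applied within the groups of 3 libraries.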

How the results depend on the processing

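The alternatives left 4 members changed by DGAT1i in IFNγ + LPS, 3 or 4 by DGAT1i in M0, 6 or 7 by IFNγ + LPS, 7 by IFNγ + LPS under DGAT1i, and 3 or 4 with a difference between the DGAT1i responses, for which no fit of only 6 libraries exists. Over the 35 combinations of member and comparison, 649 of 657 alternative values kept their direction and their side of the threshold. With library size only as the scaling, the median over all genes stood at -0.46 (log2) for IFNγ + LPS and at -0.43 under DGAT1i, and the responses to IFNγ + LPS turned to -0.15 in Slfn9, -0.014 in Ifnar2, -0.060 in Rad51d and -0.17 in Ap2b1. Slfn5 with DGAT1i in IFNγ + LPS, at -0.00, turned to 0.019 in a fit of only the 6 libraries compared and ran from -0.026 to 0.029 with single libraries left out. Libraries with the same replicate number deviated together with r between -0.02 and 0.07, and those with other numbers with r between -0.06 and 0.04. Of the 12 libraries, 9 correlated best with their own number, and whether the numbers mark pairs was not settled. With the replicate number as a block these counts were, in the same order, 4, 4, 7, 7 and 3, as without it. Below about 1 CPM, as for Slfn1 at rest, depth limits what can be seen. The causes of these shifts were not tested.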
